A study of Mus musculus with 32 samples.

Results

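The steady-state transcriptome of wild-type haematopoietic stem and progenitor cells (HSPC) was described from the 4 resting tables of a study of mouse marrow, 1 table for each of 4 biological replicates, out of 16 tables in all. The cells were donor HSPC of the C57BL/6J strain carrying both CD45.1 and CD45.2, sorted by flow cytometry for Kit and Sca1 after removal of lineage-bearing cells. They came from lethally irradiated C57BL/6J (CD45.2) recipients that had received 800000 of these wild-type marrow cells together with 200000 CD45.1 partner cells. In this naive group the partner cells carried rtTA without the hMLL-AF9 transgene, so no leukaemia was induced, although the mice went through the same transplant and drug schedule. Recipients took doxycycline for 5 weeks, starting 6 to 8 weeks from the transplant, and then went 4 weeks without it. Each mouse then received PBS, the vehicle, and was killed 24 hours later. The other 12 tables hold LPS-injected or leukaemia-experienced groups and were not used. No groups were compared, and no test was run: levels, ranks and the spread over the 4 tables are given. The labels list 2 technical replicates for every biological replicate and do not say whether a replicate is 1 mouse or a pool.

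HSPC in the lineage-negative, Sca1-positive, Kit-positive gate include the haematopoietic stem cells, which are mostly quiescent, and several kinds of multipotent progenitor, which divide more and are the larger fraction. Their identity is held by a network of transcription factors, among them the Scl, Lmo2, Gata2, Runx1, Erg, Fli1 and Lyl1 proteins. Low levels of genes of the mature blood lineages in such cells are known as lineage priming. A bulk table is an average over the sorted cells, and fewer cells of a type and less RNA per cell cannot be told apart in it.

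The tables held 22081967, 20163144, 19592902 and 16313980 expected counts in replicates 1 to 4. They give TPM, in which counts are divided by gene length and scaled to a sum of 1000000 in each table, so that TPM values may be compared between genes as far as counts grow with length. A gene is written as detected where its TPM was at least 1 in all 4 tables. This held for 12324 of 45706 gene identifiers and for 10889 of 21519 protein-coding genes, or 50.6%. A level of 10 TPM in all 4 tables was reached by 7185 protein-coding genes, and 100 TPM by 710. At the other end, 6052 protein-coding genes, or 28.1%, were listed at 0 in every table. The median level was 20.6 TPM among detected protein-coding genes and 1.905 TPM among all protein-coding genes. A count of 0 allows up to 3 counts, which is 0.136 to 0.184 CPM (counts scaled to a sum of 1000000) in these tables, and this limit covers counting error only.

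The 4 highest entries were RNAs of the cell's basic machinery that are not translated. Rn7s2 and Rn7s1 encode 7SL, the RNA of the signal recognition particle, Rn7sk encodes 7SK, which holds the elongation kinase P-TEFb inactive, and Rpph1 is the RNA of ribonuclease P. Rn7s2 stood at 132355, 96784, 83390 and 142459 TPM in replicates 1 to 4, and Rn7sk at 53990, 60617, 51292 and 93948 TPM. Rpph1 had 22371, 16468, 14924 and 47050 TPM. Replicate 4 was highest for all of these, and replicate 3 lowest. Together with Rmrp, Rny1 and Rny3, these RNAs took 24.1% ± 6.24 (SD, n = 4) of the TPM but 3.17% ± 0.805 of the counts, since dividing by a short length raises their TPM. Protein-coding genes held 65.4% ± 5.99 of the TPM and 90.4% ± 0.967 of the counts. These small RNAs have no poly(A) tail, while the library kit that the labels name primes on poly(A) tails; the part of library preparation in these levels was not tested. Because their share differed between tables, replicates are also compared with protein-coding TPM rescaled to its own total, written as rescaled TPM.

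**Figure D1:**
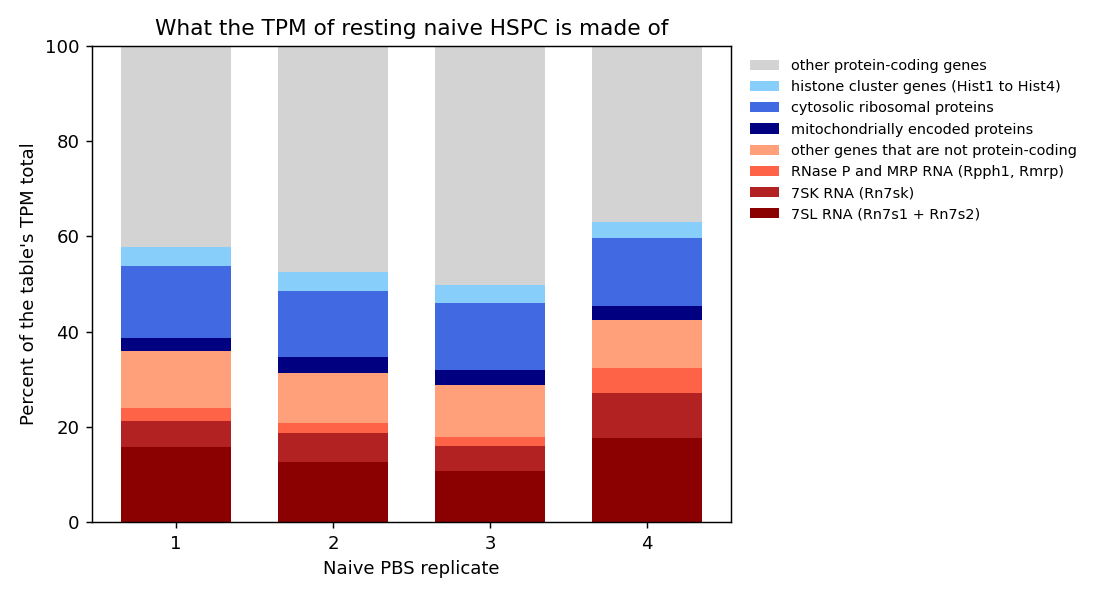
Share of each naive PBS table's TPM total (percent, vertical axis) by class of RNA in replicates 1 to 4. Red classes are not protein-coding and blue and grey classes are. The 7SL segment spans 10.8% to 17.6%, and replicate 4 has the smallest share of protein-coding TPM, 57.6%.

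Rn7s1 and Rn7s2 are listed apart but have the same sequence, so reads cannot be assigned to one of them. Their summed level was 142085 ± 30673 TPM, of which Rn7s1 was given 16.0% to 23.3%. The ratio of Rn7s2 to Rn7s1 ranged from 3.28 to 5.25 between tables although the transcripts do not differ.

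The mitochondrial genes were split in the same way with nuclear copies on chromosome 1. Gm28661, an unprocessed pseudogene at 24614885 to 24615565 on the minus strand, ranked the fifth of all entries with 10002 TPM, whereas mt-Co2, the gene of cytochrome c oxidase subunit 2, had 419, 376, 379 and 717 TPM. All 681 bases of the Gm28661 transcript lie within the 684 bases of mt-Co2 (mitochondrial genome, 7013 to 7696). The ends of both transcripts are shown, with the 3 bases that only mt-Co2 has in capitals.
mt-Co2: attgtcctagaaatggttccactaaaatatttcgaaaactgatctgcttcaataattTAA
Gm28661: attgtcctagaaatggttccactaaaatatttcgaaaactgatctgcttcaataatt
The summed level of the pair was 10475 ± 375 TPM with a coefficient of variation (CV, SD divided by the mean) of 3.58%. It was 34.7% for mt-Co2 alone and 4.86% for Gm28661 alone. For mt-Atp6, a subunit gene of ATP synthase, and its copy Gm10925 the sum had a CV of 8.49%, against 44.4% and 17.9% for each alone. The mt-Atp6 values were 1156, 1030, 305 and 1104 TPM. The copy took the larger part of the sum in every table. mt-Atp6 was given 5.87% of it in replicate 3 and 19.9% to 26.8% in the other tables. The pair of mt-Co3 and Gm28437 summed to 8198 ± 1176 TPM. Gm42418, which RefSeq also lists as Rn18s-rs5, and Gm26917 had 3945 ± 1319.8 and 3761 ± 533 TPM.

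Among protein-coding genes, those of ribosomal proteins, histones and the mitochondrial genome filled most of the 100 highest places, with 70, 10 and 7 of them. mt-Co1, cytochrome c oxidase subunit 1, ranked first with 8869 ± 1330 TPM, not counting the part given to Gm29216. Eef1a1, which brings aminoacyl-tRNA to the ribosome, followed with 7302 ± 795 TPM. Of the 87 cytosolic ribosomal protein genes, 84 were detected and 70 were among the 100 most abundant protein-coding genes. They took 21.97% ± 2.47 of rescaled TPM, led by Rplp1 with 3908 ± 276 TPM and Rps24 with 3544 ± 753 TPM. Actb, beta-actin, had 3300 ± 556 TPM, and B2m, the light chain of MHC class I, 1975 ± 256 TPM. Histone genes took 6.44% ± 0.354 of rescaled TPM, and Hist1h4d and Hist1h2bg stood at 2286 ± 234 and 2201 ± 88.7 TPM. The messages of such replication histones normally end in a stem-loop in place of a poly(A) tail.

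The 100 most abundant entries of all kinds held 47.4% ± 5.76 of TPM, and the 100 most abundant protein-coding genes held 31.7% ± 2.59 of rescaled TPM. By counts, which are not divided by length, the leading 100 protein-coding genes held 15.6% ± 0.729 of the protein-coding total, and 58 genes were in the leading 100 on both scales. Among detected genes the median TPM fell from 30.4 among the 2723 shortest transcripts to 16.4 among the 2722 longest. The median counts of the same genes went from 483 to 1316. The labels name a droplet single-cell library kit, with which counts need not grow with transcript length, and every rank between genes by TPM rests on the division by length.

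The promoters of the abundant genes carry sequence features that can be read beside the levels. Messages of ribosomal proteins are known for a run of pyrimidines at their 5′ end, through which the mTOR pathway adjusts their translation. RefSeq promoters (GRCm38.p6, 250 bases before and 50 after the annotated start) were searched on the gene's strand for a C followed by 6 or more bases that were each C or T, within 10 bases of the start. The run was found in 27 of 63 detected ribosomal protein genes with a promoter entry (42.9%), in 991 of 8623 other detected genes (11.5%), in 362 of 4378 genes listed at 0 in all tables (8.27%) and in 10.9% of all 16338 protein-coding genes with an entry. 4 starts of abundant ribosomal protein genes are shown, 15 bases on each side of the annotated start, with the run in capitals.
Rps6: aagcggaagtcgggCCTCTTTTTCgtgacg
Rpl28: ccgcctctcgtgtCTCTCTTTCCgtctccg
Rps27: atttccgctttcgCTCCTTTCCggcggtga
Rps24: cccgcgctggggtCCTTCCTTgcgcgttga
These windows lie at chr4:86857353-86857382 (minus strand), chr7:4792950-4792979 (plus), chr3:90213634-90213663 (minus) and chr14:24490663-24490692 (plus). Their genes stood at 2454 ± 116, 2999 ± 204, 3292 ± 464 and 3544 ± 753 TPM. The dinucleotide CG was counted as the highest number over a gene's annotated starts. Its median was 22 for other detected genes and 3 for genes listed at 0. The letters TATAAA between 40 and 20 bases before the start were found in 0.974% of the former and 6.44% of the latter. A match describes the letters of this window and is not a measured site.

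The genes of the sort gate and of stem and progenitor identity were well expressed in every table. Cd34, a sialomucin of early haematopoietic cells, had 344, 409.7, 458 and 370.2 TPM. Kit, the stem cell factor receptor of the gate, had 189, 232, 215 and 176 TPM and ranked number 392 among protein-coding genes. Ly6a, which encodes Sca1, the other antigen of the gate, had 69.6, 52.1, 48.9 and 70.9 TPM. On rescaled TPM Kit had 294, 338, 302 and 305, a CV of 6.18%, and Ly6a 109, 75.7, 68.7 and 123, a CV of 27.7%. Meis1, a homeodomain partner of Hox proteins, had 136, 162, 177 and 146 TPM, Flt3, a receptor of multipotent and lymphoid-primed progenitors, 79.8, 102, 115 and 83.2 TPM. Mecom, a zinc finger factor needed by stem cells, had 24.9, 38.7, 41.6 and 29.3 TPM. The order from Cd34 through Kit, Meis1, Flt3 and Ly6a to Mecom was the same in all 4 tables, so no neighbours in it overlapped within a table. On rescaled TPM the summed level of the 6 markers in replicate 4 was 1.07 times the mean of the other 3.

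**Figure D2:**
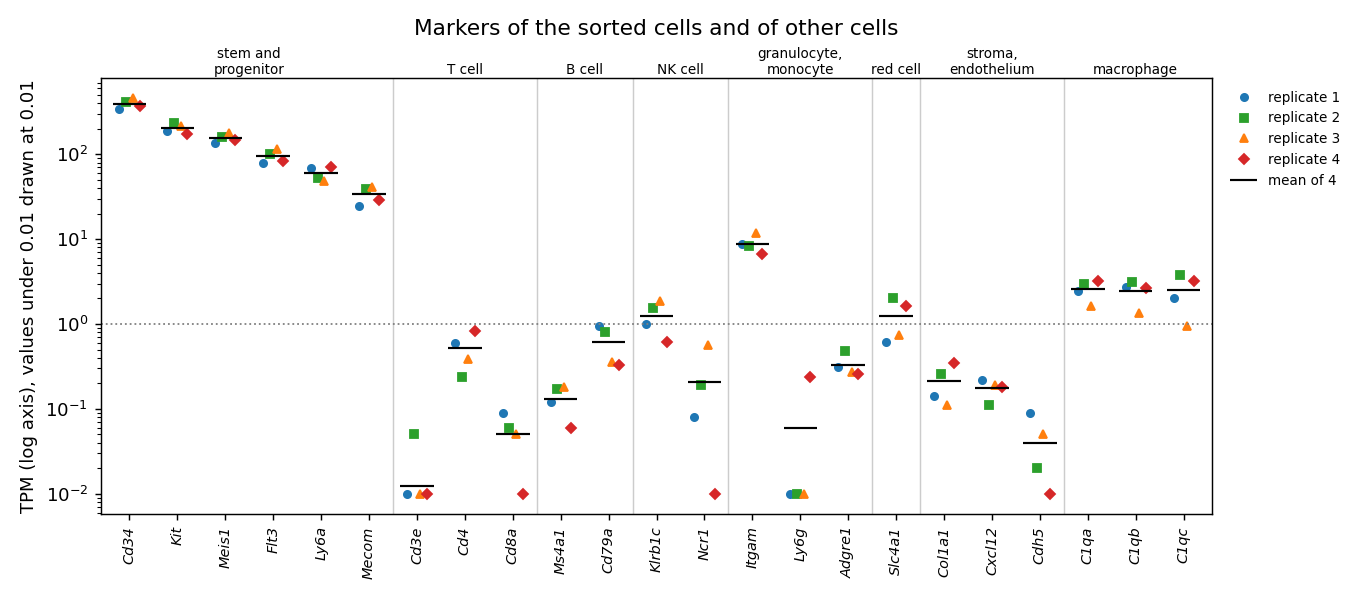
TPM (log axis) of the 6 stem and progenitor markers and of defining genes of other cells in each of the 4 naive PBS replicates, with the mean as a bar. The stem and progenitor markers lie between 24.9 and 458 TPM, while the T cell, B cell, stromal and endothelial genes drawn here lie under the dotted line at 1 TPM. Other genes of the same lists, not drawn, were detected: Cd79b and Cd22 of B cells and Pecam1, Pdgfrb and Emcn of stroma and endothelium.

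Of 40 genes linked to stem cell identity, which include Meis1 and Mecom, 36 were detected, with a median of 16.2 TPM. Among surface genes Cd27, a receptor of the tumour necrosis factor family, led with 171 ± 15.4 TPM. Procr, which encodes the endothelial protein C receptor, a marker of stem cells, had 20.9, 22.02, 19.7 and 21.0 TPM. Slamf1, the CD150 marker of long-term stem cells, had only 4.46 ± 0.617 TPM, while Cd48, a marker of the more mature progenitors in this gate, had 96.7 ± 5.18 TPM. Cd48 was higher than Slamf1 in all 4 tables. Of genes with other roles, Ifitm1 and Ifitm3, which encode membrane proteins that restrict viruses, had 345 ± 84.8 and 304 ± 31.7 TPM, and Angpt1, a ligand of the Tek receptor, 123 ± 10.9 TPM. H19, an imprinted RNA, was under 0.1 TPM in all 4 tables.

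Transcription factors were read from a list of 359 genes in 14 families. Of these 233 were detected. The median over all 359 was 9.88 TPM, against 1.905 TPM over all protein-coding genes. The list was drawn up with earlier results of these data known, so its level is not that of transcription factors at large. AP-1 genes were among the highest: Fos had 659, 984, 950 and 597 TPM, Jun 481, 577, 526 and 249 TPM, and Fosb and Junb 229.7 ± 56.6 and 190.4 ± 40.2 TPM. Replicate 4 was the lowest for Jun on TPM and on rescaled TPM, and for Fos on TPM only, since its rescaled Fos was 1036 against 1027 in replicate 1. These are immediate early genes that are also known to rise within minutes of tissue dissociation, as does Egr1, at 247, 312, 314 and 141 TPM; the part of handling in their levels was not tested. Hmgb1, a chromatin protein counted with the HMG-box genes, and Ybx1, a cold-shock domain protein, both of general function, had 631 ± 113 and 398 ± 58.7 TPM.

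Factors of haematopoietic identity filled much of the remaining upper range. Lmo2, the bridging protein of the stem cell complexes, had 474, 527, 503 and 403 TPM, and its partner Ldb1 180 ± 28.8 TPM. Myc, which drives growth, stood at 337 ± 39.2 TPM, and Myb, needed by definitive progenitors, at 269 ± 48.7 TPM. Nfe2, a factor of megakaryocyte and erythroid cells, had 203 ± 16.9 TPM, Etv6, an Ets repressor needed in adult stem cells, 165 ± 28.9 TPM, and Hlf, a factor known from stem cells, 95.5, 131, 132 and 139.95 TPM. All 7 genes of the heptad network were detected, with a median of 108 TPM. Lmo2 was the highest of the 7 in every table, and Tal1 (46.6 ± 9.74 TPM), which encodes Scl, the lowest. Fli1 (84.1 ± 5.78 TPM) lay between Gata2 and Tal1 in every table, but Runx1 fell below Fli1 in replicate 4, with 69.7 TPM. Lyl1 (133 ± 23.02), Erg (126 ± 13.4), Runx1 (108 ± 37.1) and Gata2 (96.5 ± 10.3 TPM) were less clearly ordered: Lyl1 was above Erg in 3 tables, and Runx1 above Gata2 in 2.

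**Figure D3:**
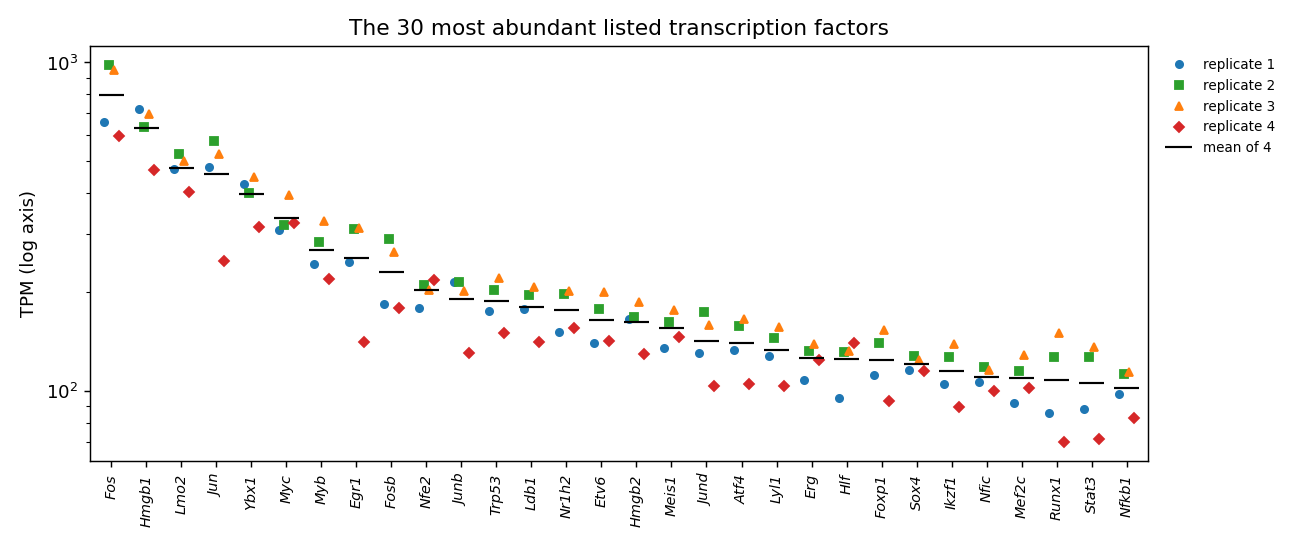
TPM (log axis) of the 30 most abundant transcription factors of the list in each of the 4 naive PBS replicates, with the mean as a bar. Means run from 797 TPM for Fos to 102 TPM for Nfkb1. Most of the factors drawn, Jun and Egr1 among them, have their lowest point in replicate 4. That table also has the smallest share of protein-coding TPM, 57.6%.

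The families differed in how many members were expressed. Runx1, Runx2, Runx3 and their partner Cbfb were detected, at 59.6 to 108 TPM, as were 10 of 10 genes of the Cebp and PAR group and 15 of 16 Irf and Stat genes. Of 48 Hox, Meis and Pbx genes only 18 were detected and 14 were listed at 0 in all tables. Hoxa9, which marks primitive progenitors, led the Hox genes with 61.8 ± 10.4 TPM, then Hoxa7 with 31.3 ± 2.15 TPM. All 9 genes of the Hoxd cluster, from Hoxd1 to Hoxd13, were under 0.1 TPM in every table. Among Gata genes, Gata2 was followed by Gata1 (15.7 ± 7.26 TPM) and Gata3 (10.9 ± 1.98 TPM), while Gata4, Gata5 and Gata6, factors of heart and gut, were under 0.1 TPM. Of 40 Tcf, Lef, Sox and Pax genes 15 were under 0.1 TPM in all tables, among them Sox2, Sox9, Pax3 and Pax7, whereas Sox4, a factor of progenitors, stood at 121 ± 6.09 TPM. Foxp3, the factor of regulatory T cells, was also under 0.1 TPM.

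Receptors and surface antigens were read from 223 matched genes, of which 157 were detected, with a median of 7.57 TPM. The highest were Ly6e, a GPI-anchored protein, with 983 ± 85.7 TPM and Adgrg1, an adhesion G protein-coupled receptor also known as GPR56, with 699 ± 75.5 TPM. Laptm5, a lysosomal membrane protein of leukocytes, had 487 ± 24.9 TPM, and Adgrl4, a related adhesion receptor, 326 ± 22.6 TPM. Cd47, the ligand that keeps macrophages from engulfing a cell, had 236 ± 41.6 TPM, and Spn, the CD43 sialophorin, 209.8 ± 27.1 TPM. Kit was the eighth of these genes.

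Cytokine receptors showed a wide range below Kit. Csf3r, the receptor of granulocyte colony-stimulating factor, had 87.1, 109, 114 and 91.1 TPM, and Il2rg, the common gamma chain, 90.2 ± 6.95 TPM. Il7r, the partner chain that lymphoid progenitors need, had only 1.72 ± 0.301 TPM. Epor, the erythropoietin receptor, had 4.63 ± 2.39 TPM, and Csf1r, the macrophage colony-stimulating factor receptor, 6.03 ± 2.14 TPM, both lowest in replicate 4. The receptors for leptin and prolactin, Lepr and Prlr, were under 0.1 TPM in every table. Over the whole list 75 of 106 cytokine receptor genes were detected, with a median of 5.77 TPM.

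Receptors for inflammatory signals were present at rest. Ifnar2 and Ifnar1, which form the type I interferon receptor, had 74.8 ± 10.2 and 33.8 ± 6.33 TPM, and Ifnar2 was higher in all 4 tables. Ifngr1, the ligand-binding chain for interferon gamma, had 59.9 ± 6.37 TPM and Tnfrsf1a, a receptor of tumour necrosis factor, 66.4 ± 12.3 TPM. Ifnlr1, the interferon lambda receptor, was under 0.1 TPM. The genes that sense LPS were low: Tlr4 had 4.56, 6.82, 5.96 and 5.83 TPM, its partner Ly96 had 2.69 ± 0.591 TPM and the co-receptor Cd14 had 0.870 ± 0.209 TPM, which did not reach the detection level in 3 of 4 tables. Cd180, a relative of Tlr4 known in B cells, was the highest gene of the Toll-like receptor list with 18.1 ± 2.53 TPM.

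Of homing and adhesion receptors, Cxcr4, the receptor of the niche chemokine Cxcl12, led the chemokine and lipid receptors with 101, 127, 158 and 98.0 TPM, and S1pr4 followed with 29.8 ± 3.85 TPM. Selplg, the selectin ligand PSGL-1, had 146 ± 16.98 TPM. Among integrins Itga2b had 99.8 ± 31.1 TPM, and Itga6, Itgb1 and Itga4, which bind laminin, fibronectin and VCAM1 in different pairs, lay between 63.2 and 65.0 TPM. None of these neighbours kept its order in all 4 tables.

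**Figure D4:**
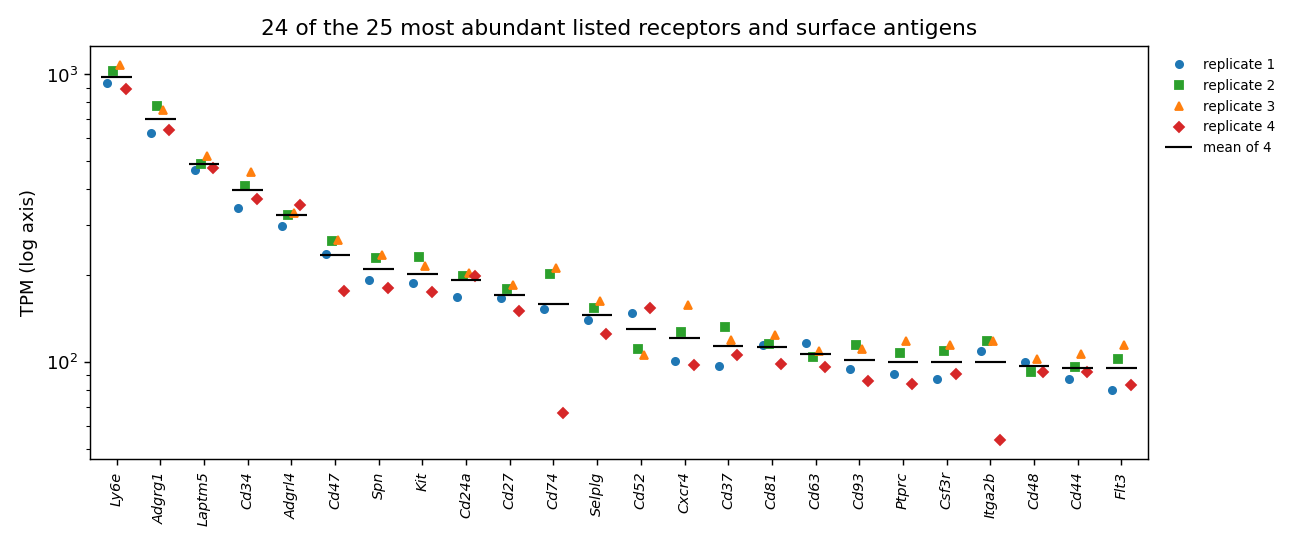
TPM (log axis) of 24 of the 25 most abundant listed receptors and surface antigens in each of the 4 naive PBS replicates, with the mean as a bar. Means run from 983 TPM for Ly6e to 95.1 TPM for Flt3. Many of the genes drawn, Cd74 and Itga2b among them, are lowest in replicate 4.

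Genes of each blood lineage were read from fixed lists, and Mpo of the granulocyte list was the highest of them. All 8 genes of the primary granule list were detected, with a median of 169 TPM. Mpo, myeloperoxidase, had 774, 816, 1011 and 304 TPM and Prtn3, proteinase 3, 438, 435, 464 and 219 TPM. Elane, neutrophil elastase, had 104, 129, 154 and 16.9 TPM, and Ctsg, cathepsin G, 199.5, 201, 211 and 73.7 TPM. Replicate 4 was the lowest for all of these and did not overlap the other 3. Srgn, serglycin, the granule proteoglycan, was instead highest in replicate 4, with 581, 582, 536 and 676 TPM. Genes of later granulocytes were low: 2 of 9 were detected, with a median of 1.07 TPM, and S100a8 led with 9.39 ± 7.23 TPM. Of the monocyte and dendritic genes, Cst3, cystatin C, had 279 ± 45.3 TPM, Lyz2, lysozyme, 125 ± 3.96 TPM and Irf8, a factor of monocyte and dendritic fate, 49.8, 52.4, 59.6 and 18.0 TPM. Spi1, the factor PU.1, stood at 83.7 ± 3.74 TPM and Cebpa at 34.3, 33.2, 37.0 and 17.1 TPM.

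Early lymphoid genes were expressed while most genes of committed lymphocytes were not detected. Of 18 early lymphoid genes 14 were detected, with a median of 38.4 TPM. Dntt, terminal transferase, had 112, 104, 105 and 116 TPM, Ikzf1, the Ikaros factor, 115 ± 22.4 TPM and Cd52 129.8 ± 25.01 TPM. Among 12 B cell genes 4 were detected, Igkc, Ighm, Cd79b and Jchain. Pax5, the B cell commitment factor, had 0.275 ± 0.356 TPM, Ebf1 0.205 ± 0.199 TPM and Vpreb2 was listed at 0. Of the detected genes, the immunoglobulin constant regions Igkc and Ighm had 333, 422, 312 and 539.7 TPM and 114, 255, 149 and 238 TPM. Jchain, which joins immunoglobulin polymers, had 17.7 ± 5.49 TPM and Cd79b, a B cell receptor chain, 20.7 ± 1.43 TPM, although the defining B cell antigen gene Ms4a1 was at 0.133 ± 0.055 TPM. The source of the immunoglobulin RNA was not tested. Of 10 T cell genes only Gata3 was detected.

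The megakaryocyte list had 15 of 17 genes detected, with a median of 13.6 TPM. Itga2b, the CD41 integrin, had 109, 118, 119 and 53.5 TPM, Pf4, platelet factor 4, 73.0, 98.1, 65.5 and 47.1 TPM and Selp, P-selectin, 59.8 ± 9.69 TPM. Gp6, the platelet collagen receptor, was listed at 0 in all 4 tables. Vwf, von Willebrand factor, which marks platelet-biased stem cells, had 16.3, 21.6, 12.4 and 7.67 TPM.

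Erythroid genes were split between carbonic anhydrases and haemoglobins. Car2 had 272 ± 39.2 TPM and Car1 63.6, 88.3, 92.0 and 11.3 TPM, and both encode carbonic anhydrases of red cell precursors. Zfpm1, the Gata1 cofactor FOG1, had 95.5 ± 19.4 TPM, Gata1 17.3, 22.7, 17.2 and 5.47 TPM, and Klf1, the erythroid Krüppel factor, 7.65, 9.53, 10.4 and 1.32 TPM. Car1, Gata1 and Klf1 were each lowest in replicate 4. The haemoglobin genes Hba-a2 and Hbb-bs had 2.47 ± 0.810 and 2.40 ± 1.16 TPM, and Hba-a1, whose transcript shares most of its sequence with Hba-a2, was listed at 0, so only their sum is interpretable. Of 15 basophil, mast and eosinophil genes 8 were detected. Fcer1g, the shared Fc receptor chain, and Cpa3, the mast cell carboxypeptidase, had 37.2 ± 7.20 and 26.6 ± 4.43 TPM. Prss34, a basophil protease, had 3.40, 4.84, 3.63 and 0.060 TPM, and Tpsab1, mast cell tryptase, was listed at 0.

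The antigens used to define mature lineages were low, with exceptions. Of 29 such genes 6 were detected, and the median was 0.450 TPM. Cd3e, part of the T cell receptor complex, was listed at 0 in 3 tables and at 0.050 TPM in replicate 2, 1 count in all. Cd8a was under 0.1 TPM in every table, and Cd4 had 0.515 ± 0.257 TPM. Ly6g, the granulocyte antigen of Gr1, was listed at 0 in 3 tables and at 0.240 TPM in replicate 4. The natural killer genes Klrb1c and Ncr1 had 1.25 ± 0.556 and 0.207 ± 0.248 TPM, and Adgre1, the macrophage F4/80 antigen, 0.330 ± 0.102 TPM. Slc4a1, the anion exchanger of the red cell membrane, had 1.25 ± 0.687 TPM. The exceptions were Nkg7 with 167 ± 7.94 TPM, a granule protein gene that also stands in the primary granule list, Ly6c2 with 29.99 ± 16.7 TPM, Cd79b with 20.7 ± 1.43 TPM, Cd68 with 17.1 ± 2.93 TPM, Itgam, which encodes CD11b, with 8.88 ± 2.13 TPM and Cd22, whose 2.78 ± 1.34 TPM was far below the others. Cd79b encodes a B cell receptor chain whose partner Cd79a was at 0.610 ± 0.311 TPM.

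RNA of other organs was at or near the limit, while 3 of 15 stromal and endothelial genes and 4 of 10 macrophage genes were detected. Of 26 genes of other organs none was detected, 21 were under 0.1 TPM in all tables and 18 were listed at 0, among them Alb of liver, Ins1 and Ins2 of pancreas and Myh6 of heart. The muscle gene Ckm was the highest of them with 0.410 ± 0.275 TPM. The stromal and endothelial genes Col1a1, Cxcl12 and Cdh5 had 0.215 ± 0.111, 0.175 ± 0.047 and 0.040 ± 0.039 TPM. Pecam1, Pdgfrb and Emcn, listed with them, were detected at 45.5 ± 5.45, 20.9 ± 2.33 and 9.74 ± 2.34 TPM, of which Pecam1 is also known in blood progenitors. The complement genes of macrophages, C1qa, C1qb and C1qc, had 2.58 ± 0.692, 2.46 ± 0.766 and 2.51 ± 1.28 TPM and were lowest in replicate 3. Their part in other values was not tested.

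Genes of cell division were expressed throughout. All 20 G1/S and replication genes and all 18 G2/M genes were detected, with medians of 98.5 and 48.6 TPM. Cdk4 and Cdk6, the kinases of G1, had 550.1 ± 96.8 and 310.5 ± 83.8 TPM, Pcna, the replication clamp, 312 ± 35.1 TPM, and Top2a, topoisomerase II alpha, 175, 202, 229.97 and 106 TPM. Mki67, the proliferation antigen, had 79.6, 98.1, 117 and 42.6 TPM, lowest in replicate 4. Of the 7 inhibitors of cyclin-dependent kinases, Cdkn1b, which encodes p27, was the highest and steady at 48.1, 50.7, 52.2 and 48.0 TPM. Cdkn1a, which encodes p21, had 15.8 ± 2.97 TPM and Cdkn1c, which encodes p57 and is known from quiescent stem cells, 2.54 ± 0.524 TPM. Cdkn2a, the locus of p16 and p19Arf, was listed at 0 in all 4 tables, where 3 counts in the least sensitive table would be 0.275 TPM, and Cdkn2b had 1 count in all.

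Antigen presentation and interferon-induced genes were expressed in these PBS-injected mice. All 15 MHC class I pathway genes were detected, with a median of 131 TPM, and H2-K1 had 865 ± 80.3 TPM. All 10 class II genes were detected as well, with a median of 35.7 TPM: Cd74, the invariant chain, had 153, 202, 213 and 66.7 TPM and H2-Ab1 118, 121, 134 and 65.5 TPM, both lowest in replicate 4. Of 27 interferon-induced genes 26 were detected, with a median of 13.9 TPM, led by Ifitm3 and by Ifi27 with 197 ± 23.4 TPM. Several class I H2 genes are similar to each other, and their separate values are uncertain. Xist, which silences an X chromosome in female cells, had 59.4, 98.0, 136 and 51.0 TPM, and the Y-linked gene Eif2s3y 26.7, 30.6, 29.3 and 34.1 TPM. Both were read in every table, and the labels used here give no sex.

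The 4 tables were close to each other, and replicate 4 stood somewhat apart. Across 13903 genes with a mean of at least 1 TPM, Pearson's r of log2(TPM + 1) was 0.929 to 0.946 for the 6 pairs and Spearman's rho 0.940 to 0.961; these are across genes, which are not independent replicates. With protein-coding genes alone, on rescaled TPM, r was 0.971 to 0.990. Pairs within replicates 1 to 3 had at least 99.1% of detected protein-coding genes within a factor of 2 of each other, and pairs with replicate 4 96.9% to 97.7%. The tables were not copies of each other: the chi-square of counts per degree of freedom was 7.76 to 34.8, where sampling alone would give about 1. The CV fell with level, from a median of 24.9% at 1 to 5 TPM to 11.5% at 20 to 100 TPM and 10.3% at 100 to 1000 TPM, all on rescaled TPM. Above 1000 TPM it was 13.1%.

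Replicate 4 was the lowest table for 45.0% of detected protein-coding genes on rescaled TPM and the highest for 21.4%. Replicate 1 was the lowest for 32.2%, and replicate 3 the highest for 41.2%. In replicate 4, 160 genes were under a factor of 0.5 of the mean of the others, against 20 to 36 in replicates 1 to 3. On the same scale its summed level, as a ratio to the mean of the others, was 0.628 for erythroid factors and receptors, 0.657 for G2/M genes, 0.659 for basophil and mast genes, 0.679 for MHC class II, 0.717 for primary granule genes and 0.678 for immediate early and heat shock genes. It was 1.18 for stem cell surface genes, 1.13 for stem cell factors, 1.08 for early lymphoid genes and 1.22 for interferon-induced genes. For the 7 heptad factors it was 0.945, with 4 of them lowest in replicate 4. For the whole list of 359 transcription factors it was 0.900. All 18 G2/M genes and all 7 erythroid factors and receptors were lowest in replicate 4, whereas none of the 13 stem cell surface genes at 1 TPM in any table was. Replicate 4 also had the fewest counts and the largest share of 7SL, 7SK and Rpph1 RNA; their part in these differences was not tested. Without replicate 4 the mean of Mpo was 867 TPM in place of 726, that of Elane 129 in place of 101 and that of Car1 81.3 in place of 63.8.

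**Figure D5:**
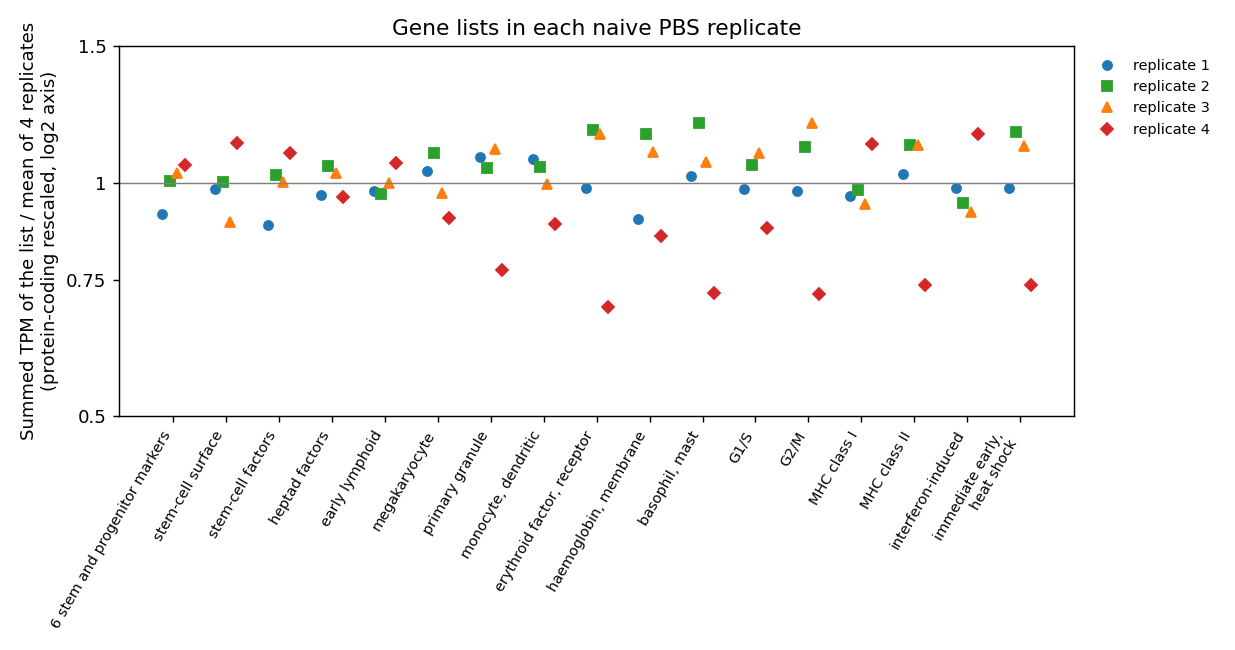
Summed rescaled TPM of each gene list in replicates 1 to 4, divided by the mean of the 4 (log2 axis). Replicate 4 lies below the other 3 for granulocyte, erythroid, basophil, cell cycle and MHC class II lists and above them for stem cell surface and interferon-induced lists. For the heptad factors it lies slightly below them.

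Among 5490 protein-coding genes of at least 20 TPM, several of the least steady were low in replicate 4. Hspa1a and Hspa1b, the inducible Hsp70 genes, had 64.4, 101, 62.6 and 3.49 TPM and 76.3, 124, 67.4 and 3.36 TPM; they are near-copies, and their sum was 141, 226, 129.96 and 6.85 TPM. Klf2, a factor of quiescent lymphocytes, had 34.9, 72.6, 47.1 and 15.6 TPM. Lars2, mitochondrial leucyl-tRNA synthetase, had 105, 110.5, 41.1 and 16.6 TPM. Some departures lay elsewhere: Hist1h2ad was high in replicate 1, with 379, 82.6, 94.0 and 93.1 TPM (89.9 TPM on average without that replicate), Banp in replicate 3, with 16.1, 16.0, 38.3 and 12.1 TPM, and Wfdc17 was highest in replicate 4, with 15.5, 18.1, 15.3 and 39.1 TPM. The steadiest gene was Rps3 of the small ribosomal subunit, with 752, 760.1, 758 and 748 TPM, a CV of 0.721%. Cox6b1, a cytochrome c oxidase subunit, had a CV of 0.945%, and Plac8, a small cysteine-rich protein of myeloid and lymphoid progenitors, had 809 ± 14.8 TPM and a CV of 1.83%. On rescaled TPM these steady genes were not equally steady, since Rps3 in replicate 4 was then 1.17 times the mean of the others.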

How the data were processed

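RNA of sorted marrow HSPC was read from 1 table per biological replicate (n = 4). The submitters' processing notes name Trim Galore 0.6.7, the aligner STAR 2.7.10a, the quantifier RSEM 1.3.1 and the genome GRCm38. Annotation release and strandedness: not given in the sources used here. Per the file headers, the authors deposited TPM, RSEM's values per gene length scaled to the same total in each table. They also deposited expected counts, RSEM's estimates, which need not be whole and divide reads shared by several genes; overlapping, antisense and near-identical genes are therefore uncertain.

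Symbols came from GENCODE M21 on GRCm38, which matched 45143 of 45706 identifiers; of 869 listed symbols 865 matched. Samples were grouped by their titles. Levels are mean ± SD of TPM over the 4 tables, with no filter, and the replicates may not be separate mice. Rescaled TPM uses the 21519 protein-coding genes. The median of a gene list is taken over all its matched members, detected or not. TMM and upper-quartile factors came from edgeR 4.0.16 (R 4.3.3) on expected counts rounded to whole numbers; other steps used Python 3.11.15 and pandas 2.3.3. The measures of spread were tested on simulated data. Promoters with several annotated starts counted once if any start held the letters, and their CG count was the highest over the starts.

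Members and gene lists were chosen with earlier results of these data known. The rule named the 30 most abundant entries, the marker genes, up to 4 leading members and any member under 0.1 TPM of each list and role, the 30 leading factors, the 25 leading receptors and the 12 most and least variable genes, of which a selection is given; some are not reported here. Genes outside it (Rny1, Rny3, mt-Co2, mt-Atp6, Hist1h4d, Hist1h2bg, Procr, Slamf1, Fli1, Tal1, Hoxa7, Il7r, Epor, Csf1r, Ly96, Cd14, Pax5, Ebf1, Selp, Vwf, Klf1, Hba-a2, Hbb-bs, Prss34, Cdkn1c and Rps6) were chosen after their values were seen. Alternatives left out each replicate, changed the detection rule, pseudocount, gene set and scaling, or used CPM, expected counts scaled to the table's total.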

Additional observations from a re-analysis of the deposited data

Results flagged for a closer look

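A replicate was marked where its gap to the nearest of the others, divided by the range of the 4 values, passed Dixon's critical value. Chance marks about 1 in 20 groups. Of 97 library and list measures 7 were marked, and of 157 named genes at a mean of 1 TPM or more 14 were, 10 of them for replicate 4. The chance rate does not apply to the genes, since several were named for their spread or after their values were seen. Nor does it hold strictly for the measures, since some overlap or restate each other. No cause of any of these was tested.

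In replicate 4 the number of genes above 0 TPM was 17615, lower than in the other 3. Genes of heat shock proteins and chaperonins took 1.02% of rescaled TPM there. The summed rescaled TPM of the granulocyte and monocyte list was 3746, the lowest of the 4, and that of the natural killer antigen list, carried by Nkg7, was 284, the highest. Prtn3 was low there with 219 TPM and so was Ctsg with 73.7 TPM, both granule protease genes. Itga2b had 53.5 TPM, Csf1r 2.84 TPM, Junb 131 TPM, H2-K1 745 TPM and Ifi27 163 TPM, each the lowest of its 4 TPM values. On rescaled TPM H2-K1 was not lowest in replicate 4, with 1294 there and 1274 in replicate 3. Wfdc17 with 39.1 TPM, Rps6 with 2627 TPM and mt-Co2 with 717 TPM were highest in replicate 4.

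In replicate 1 Hist1h2ad was high with 379 TPM. The summed rescaled TPM there was lowest for the tumour necrosis factor receptors (649), for the Hox, Meis and Pbx genes (784) and for all receptor lists together (12479). Replicate 2 was high for mt-Co3 with 3471 TPM. Replicate 3 was low for mt-Atp6 with 305 TPM and high for Banp with 38.3 TPM. The mitochondrial genes share their sequence with nuclear copies, and their levels apart from those copies are not interpretable.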

How the results depend on the processing

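Leaving out each replicate in turn gave 12396 to 12784 detected genes against 12324 with all 4. The 100 most abundant entries then held 44.8% to 49.3% of TPM, the mean r of log2(TPM + 1) was 0.934 to 0.944, and the median level of the 865 listed genes was 9.33 to 10.4 TPM. Other detection rules gave 11254 to 13903 genes, all within a factor of 1.5. On rescaled TPM 11232 protein-coding genes were detected, against 10889 on TPM. The share of the leading 100 entries moved from 47.4% to 31.7% with protein-coding genes alone and to 20.3% by CPM. The mean r moved from 0.939 to 0.884 and 0.961 with pseudocounts of 0.1 and 5, to 0.981 over all genes, to 0.914 over genes of at least 10 TPM and, in an alternative added after the data were seen, to 0.981 with protein-coding genes on rescaled TPM. The median level of listed genes moved from 9.83 to 14.2 on rescaled TPM and to 19.8 by CPM, by the construction of these scales. Summing 5 pairs of shared-sequence copies, also added after the data were seen, changed neither the detected genes (12319) nor the leading share (47.9%) beyond these limits. Of 187 named genes with a rescaled value 136 moved by more than 1 SD on that scale, and of all 203 named genes 142 did by CPM; Hist1h2ad fell by over 1.5 times without replicate 1. No paired analysis was possible because no result comes from a test. Depth limits genes of low TPM, which rest on a few counts. The limit differs with gene length and lies above 0.1 TPM for some genes, such as Cdkn2a.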
